A study of Mus musculus with 9 samples.

Results

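The mitochondrial ribosome is built from nuclear-encoded proteins that carry the gene symbols Mrpl (large subunit) and Mrps (small subunit). All genes with such a symbol that the array measured with a probe set of their own were taken, each through its brightest probe set over the 9 arrays, which gave 76 of the 18193 genes tested: 47 of the large and 29 of the small subunit. The cells were bone marrow derived macrophages of C57BL6 mice aged 6 to 12 weeks, used on day 6 in vitro, with L929 conditioned medium withdrawn the day before. All 3 groups had first received 33 ng/mL LPS, a bacterial cell wall component, for 3 h. The groups differed in what followed for 6 h, which was TMT OH at 1.25 µM (LPS+TMT), TET Br at 10 µM (LPS+TET), both organotins, or sterile saline (LPS). Each group had 3 arrays, labelled as biological replicates, without a statement that they came from separate mice. No group without LPS was analysed here, so every difference is one between LPS-primed cells.

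Mitochondrial ribosomes translate the few proteins that mitochondrial DNA encodes, all of them subunits of the respiratory chain and the ATP synthase. Their RNAs are made in mitochondria, whereas every one of their proteins is made in the cytosol and imported, so the mRNAs measured here come from many scattered nuclear genes. Some of the proteins descend from those of bacterial ribosomes and others were added in the evolution of mitochondria. Some organotins are known inhibitors of the mitochondrial ATP synthase.

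The probe sets of the mitochondrial ribosome gave signals in the upper part of the array's range. Levels are given throughout as the deposited log2 signals, on which 1 unit is a doubling, and signals of different probe sets cannot be ranked against each other as amounts of mRNA. Of the 76 genes, 76 lay at or above the median signal of all genes in saline (6.74). The median of the members was 9.94, the 80.6th percentile of all genes, and the dimmest member lay at the 59.3rd percentile. The medians of the large and small subunit were 9.92 and 9.99. By the mean over all 9 arrays, Mrpl52, Mrpl39, Mrps18c and Mrpl13 gave the brightest probe sets, and their saline means were 13.71 ± 0.01, 12.54 ± 0.01, 11.67 ± 0.03 and 11.35 ± 0.09 (SD, n = 3 each). Mrpl14, which sits at the interface of the subunits, and Mrpl38 gave the dimmest, at 7.74 ± 0.01 and 7.95 ± 0.08.

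Replicates were close together, and most macrophage markers were bright. The median SD of a member was 0.092 under LPS+TMT, 0.148 under LPS+TET and 0.063 in saline. Over all genes these medians were 0.118, 0.171 and 0.0907. The middle range of signals over all genes (75th minus 25th percentile) was 4.34 ± 0.03 under LPS+TMT, 3.89 ± 0.05 under LPS+TET and 4.28 ± 0.04 in saline, so the LPS+TET arrays had a narrower range than the others. The 9 macrophage markers examined had their median at the 98.5th, 98.4th and 98.5th percentile of all genes under LPS+TMT, LPS+TET and LPS, and the dimmest of them (Mertk under LPS+TMT, Itgam in the others) lay at the 68.0th, 73.6th and 74.0th. In whole-well RNA, fewer cells of a type and less RNA per cell cannot be told apart.

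Promoters were examined for sequences that members share. The mouse RefSeq promoter table (GRCm38.p6, 250 bases before to 50 after each start) held 67 of the 76 genes. Motifs of 4 regulators of genes for mitochondrial proteins were searched on both strands: GCGCANGCG for NRF1, CCGGAAG for the ETS factors that include GABP, AAGATGGCG for YY1 and CACGTG for MYC and its partners. Some genes have several promoters in it, and a gene was counted where any of them matched. The NRF1 letters were found for 15 member genes (22.4%), against 11.4% of the 14452 genes tested that the table held. The ETS letters were in 25 (37.3%, against 2165 of the 14452), the YY1 letters in 8 (11.9%, against 2.53%) and the MYC letters in 5 (7.46%, against 10.2%). At least 1 of the 4 was found for 42 member genes (62.7%, against 32.4%). In addition, 23 of the 67 genes (34.3%, against 15.6%) had a promoter that overlapped another gene's promoter on the opposite strand, as in head-to-head gene pairs. The shares were set against all genes only and were not counted among genes of the same brightness as the members. A match is a run of letters, and binding was not measured. The 5 promoters that follow belong to members with the clearest responses described further on; capitals mark the motif matches, and lower case throughout means that none of the 4 motifs was found. The first is shown because its gene rose under both compounds together with the gene on the opposite strand.
Mrpl43 (chr19:45006393-45006692, minus strand, 2 ETS matches starting at −56 and −12 from the start): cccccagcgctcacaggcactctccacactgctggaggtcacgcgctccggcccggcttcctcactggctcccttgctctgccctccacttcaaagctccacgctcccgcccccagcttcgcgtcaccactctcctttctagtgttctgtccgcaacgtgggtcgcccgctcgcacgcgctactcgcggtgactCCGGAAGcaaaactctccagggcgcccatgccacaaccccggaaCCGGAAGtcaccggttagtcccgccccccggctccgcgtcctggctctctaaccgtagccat
Mrpl42 (chr10:95501900-95502199, minus strand, YY1 match starting at base 28 of the transcript; lower under both compounds): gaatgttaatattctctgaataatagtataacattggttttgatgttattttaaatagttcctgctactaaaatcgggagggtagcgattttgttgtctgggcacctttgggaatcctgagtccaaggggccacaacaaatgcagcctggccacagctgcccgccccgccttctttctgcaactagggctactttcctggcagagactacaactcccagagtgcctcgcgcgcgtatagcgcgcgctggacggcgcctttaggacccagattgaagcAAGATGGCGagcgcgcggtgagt
Mrpl10 (chr11:97041332-97041631, plus strand, NRF1 match on the opposite strand starting at −135; lower under LPS+TET): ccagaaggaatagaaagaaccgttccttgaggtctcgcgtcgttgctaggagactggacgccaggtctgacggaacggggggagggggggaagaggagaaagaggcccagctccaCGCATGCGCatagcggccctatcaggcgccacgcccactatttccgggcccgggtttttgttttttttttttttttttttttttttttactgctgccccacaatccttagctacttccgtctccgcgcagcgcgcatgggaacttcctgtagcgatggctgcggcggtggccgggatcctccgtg
Mrpl40 (chr16:18876588-18876887, minus strand; higher under LPS+TMT and lower under LPS+TET): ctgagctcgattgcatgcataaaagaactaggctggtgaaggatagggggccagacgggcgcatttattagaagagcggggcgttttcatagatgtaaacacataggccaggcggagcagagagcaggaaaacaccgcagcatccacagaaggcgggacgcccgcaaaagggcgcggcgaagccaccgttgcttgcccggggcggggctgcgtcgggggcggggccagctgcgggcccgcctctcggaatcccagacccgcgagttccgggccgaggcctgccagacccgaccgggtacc
Mrpl41 (chr2:24975049-24975348, minus strand; the largest rise under LPS+TMT): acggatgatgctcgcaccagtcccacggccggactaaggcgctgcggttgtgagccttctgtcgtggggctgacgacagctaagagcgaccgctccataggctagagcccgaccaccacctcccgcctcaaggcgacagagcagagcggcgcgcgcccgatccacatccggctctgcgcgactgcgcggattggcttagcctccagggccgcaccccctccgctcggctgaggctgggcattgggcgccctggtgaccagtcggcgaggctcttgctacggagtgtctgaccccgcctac

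The first comparison asked what TMT does to primed macrophages. Of the 76 members, 10 rose and 10 fell at an adjusted p under 0.05, which is 26.3% of them, while 27.8% of all genes tested passed (14.3% higher and 13.4% lower). The share of members was thus near the background. Their median difference, LPS+TMT minus LPS, was −0.012 on the log2 scale, against 0.012 over all genes, and the members ran from −0.84 to 1.11. Among 2499 other genes of the same brightness (signals between the 25th and the 75th percentile of the members, 9.03 to 10.58), 50.5% passed, 26.6% higher and 23.9% lower, with a median of 0.022. Of the 38 members inside that range, 4 rose and 6 fell, or 26.3%. The range of differences from the 25th to the 75th percentile was −0.22 to 0.22 for the members and −0.34 to 0.41 for the equally bright genes. Without LPS array 1 the count of members that passed was 13. With a weight estimated for each array it was 44 (19 higher and 25 lower), where 48.1% of all genes passed, and with the 6 arrays of the comparison fitted alone 31 (16 higher and 15 lower), where 33.4% of all genes did.

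The subunits differed in their counts under LPS+TMT, without a test of the difference. In the large subunit 9 of 47 genes rose and 7 fell, with a median of 0.047. In the small subunit 1 of 29 rose and 3 fell, with a median of −0.080. Among 2463 genes as bright as the large subunit 50.5% passed, and among 1895 as bright as the small subunit 50.3% did. Structures place the products of Mrps18a and Mrps30 in the large subunit; with both moved there, 16 large and 4 small subunit genes passed, as by symbol. Of 45 members with a bacterial counterpart 3 rose and 7 fell, and of 30 found in mitochondrial ribosomes but not in bacterial ones 7 rose and 3 fell. These are 22.2% and 33.3% in all, against 27.8% of all genes (14.3% higher and 13.4% lower), and the difference between the 2 sets was not tested.

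**Figure D1:**
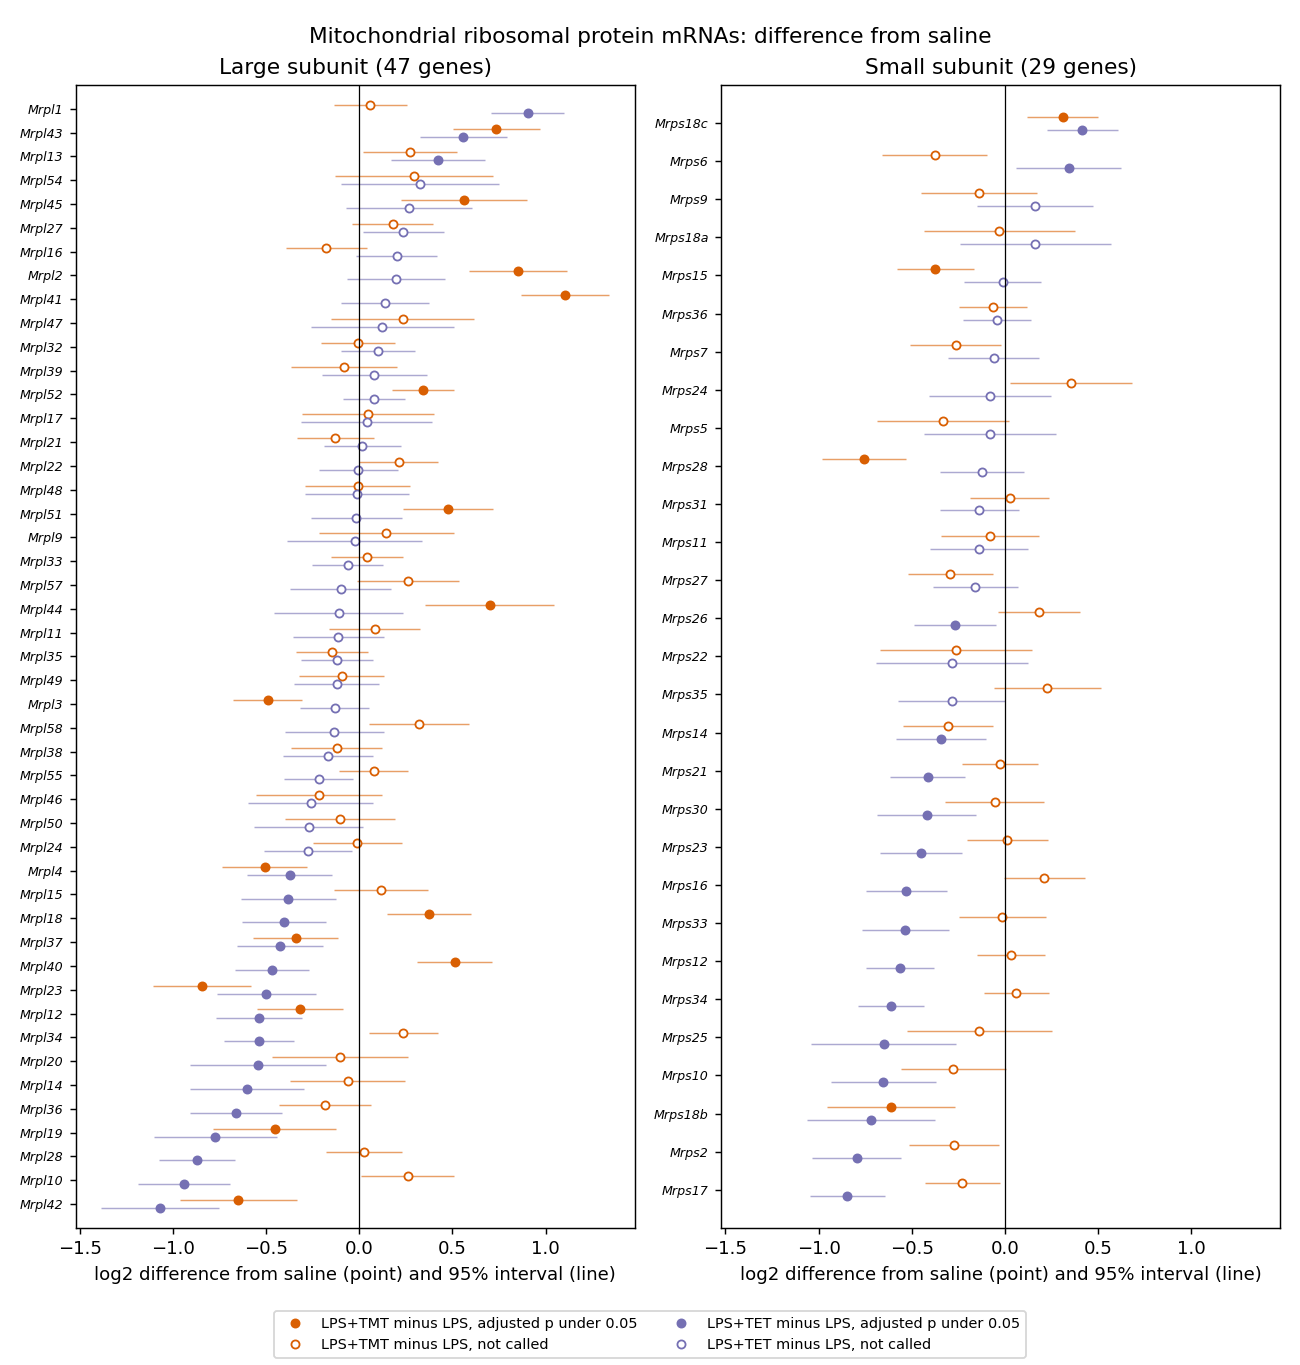
Differences of all 76 members from saline in log2 units (horizontal axis), large subunit left and small subunit right, ordered by the LPS+TET difference. Points are fitted differences, orange for LPS+TMT minus LPS and violet for LPS+TET minus LPS, lines are 95% intervals, and filled points passed at an adjusted p under 0.05; 10 orange points are filled on each side of 0, against 5 violet points above 0 and 29 below it.

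The largest rise under LPS+TMT was that of Mrpl41, a large subunit protein with no bacterial counterpart. Its signals were 11.02, 11.18 and 11.13 under LPS+TMT, against 9.93, 10.10 and 9.98 in saline. The groups did not overlap, and the difference was 1.11 ± 0.11 (SE), or 2.15-fold (limma adjusted p = 2.7e-05). A second probe set of the gene, at a mean signal of 9.42, gave 1.01, and the dimmest, at 5.56, gave 0.10; the mean over the 3 gave 0.74, which passed. Under LPS+TET the signals were 10.24, 9.95 and 10.23, which overlapped saline, and the difference of 0.14 ± 0.11 did not pass (adjusted p = 0.30). The second probe set, at 0.04, did not pass there either, while the dimmest rose by 0.82.

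Mrpl2, whose bacterial counterpart lies close to the site where peptide bonds form, had 9.21, 9.31 and 9.23 under LPS+TMT, against 8.39, 8.48 and 8.33 in saline. All 3 treated arrays were above saline, by 0.85 ± 0.12 (adjusted p = 0.00033). Mrpl43 had 10.68, 10.74 and 10.70, against 9.84, 10.15 and 9.93, a rise of 0.74 ± 0.10 (adjusted p = 0.00039). Mrpl44, a relative of the RNase III enzymes in which human mutations cause heart muscle disease, had 11.54, 12.04 and 11.50, against 10.84, 11.19 and 10.94. Its groups did not overlap, although array 2 was the highest in both, and the rise was 0.70 ± 0.16 (adjusted p = 0.0067). Of its other 3 probe sets, those at mean signals of 10.76 and 8.62 rose as well, by 0.67 and 0.40.

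Smaller rises under LPS+TMT were seen in Mrpl45, Mrpl40, Mrpl51, Mrpl18, Mrpl52 and Mrps18c. Mrpl45, which lies at the exit of the peptide tunnel, where the ribosome meets the inner membrane, rose by 0.56 ± 0.15. Mrpl51 rose by 0.47 ± 0.11, and Mrpl52, the brightest member, by 0.34 ± 0.08: its signals were 14.03, 14.08 and 14.04 under LPS+TMT, against 13.70, 13.70 and 13.72 in saline. Mrps18c, of the small subunit, rose by 0.31 ± 0.09. The call of Mrpl51 was lost with the mean over its 3 probe sets (0.28, adjusted p = 0.220). The call of Mrpl45 was lost without TMT array 1 or 3 or LPS array 2 or 3, and that of Mrps18c without TMT array 1 or 2 or any 1 LPS array (adjusted p up to 0.0758 and 0.0757).

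The largest fall under LPS+TMT was that of Mrpl23, whose bacterial counterpart lies at the exit of the peptide tunnel. Its signals were 9.56, 9.47 and 9.76 under LPS+TMT, against 10.45, 10.45 and 10.40 in saline, and it fell by 0.84 ± 0.12 on the log2 scale, 1.79-fold (adjusted p = 0.00037). Mrps28, a small subunit protein named bS1m for its bacterial counterpart, had 9.54, 9.52 and 9.64, against 10.41, 10.38 and 10.18. Its treated arrays lay below saline without overlap, by 0.76 ± 0.10 (adjusted p = 0.00026).

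Mrpl42 had 9.85, 9.73 and 10.21 under LPS+TMT, against 10.65, 10.56 and 10.53 in saline, and fell by 0.65 ± 0.14 (adjusted p = 0.0060; 0.0514 with the mean over its 2 probe sets). The second of these had a mean signal of only 2.85, where the dimmest gene of the array had 2.22, and gave 0.0002. Mrps18b, 1 of 3 relatives of bacterial S18 in mammals, had 10.77, 10.42 and 10.91, against 11.44, 11.24 and 11.25. That fall of 0.61 ± 0.15 did not pass without LPS array 1 (adjusted p = 0.0587). Mrpl4, Mrpl3 and Mrps15 fell by 0.51 ± 0.10, 0.49 ± 0.08 and 0.37 ± 0.09; Mrpl3 had 10.72, 10.78 and 10.71, against 11.22, 11.25 and 11.22, and is the counterpart of a bacterial protein near the peptidyl transferase centre. The call of Mrps15 was lost without LPS array 1 (adjusted p = 0.0572).

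Mrpl19, Mrpl37 and Mrpl12 fell by 0.45 ± 0.15, 0.34 ± 0.10 and 0.32 ± 0.10 under LPS+TMT. Mrpl12 forms the stalk that recruits translation factors to the ribosome. These calls were near the threshold (adjusted p = 0.045, 0.031 and 0.046) and were lost when any 1 TMT or LPS array was left out, with adjusted p up to 0.161, 0.0987 and 0.154. They were also lost with the replicate number as a block (adjusted p = 0.0593, 0.0510 and 0.0635), that of Mrpl19 without TET array 2 and through a probe set not marked as binding related transcripts (−0.56, adjusted p = 0.242), and that of Mrpl37 with trended robust moderation (adjusted p = 0.0535). The treated arrays of these 3 genes lay below all 3 saline arrays in each case.

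**Figure D2:**
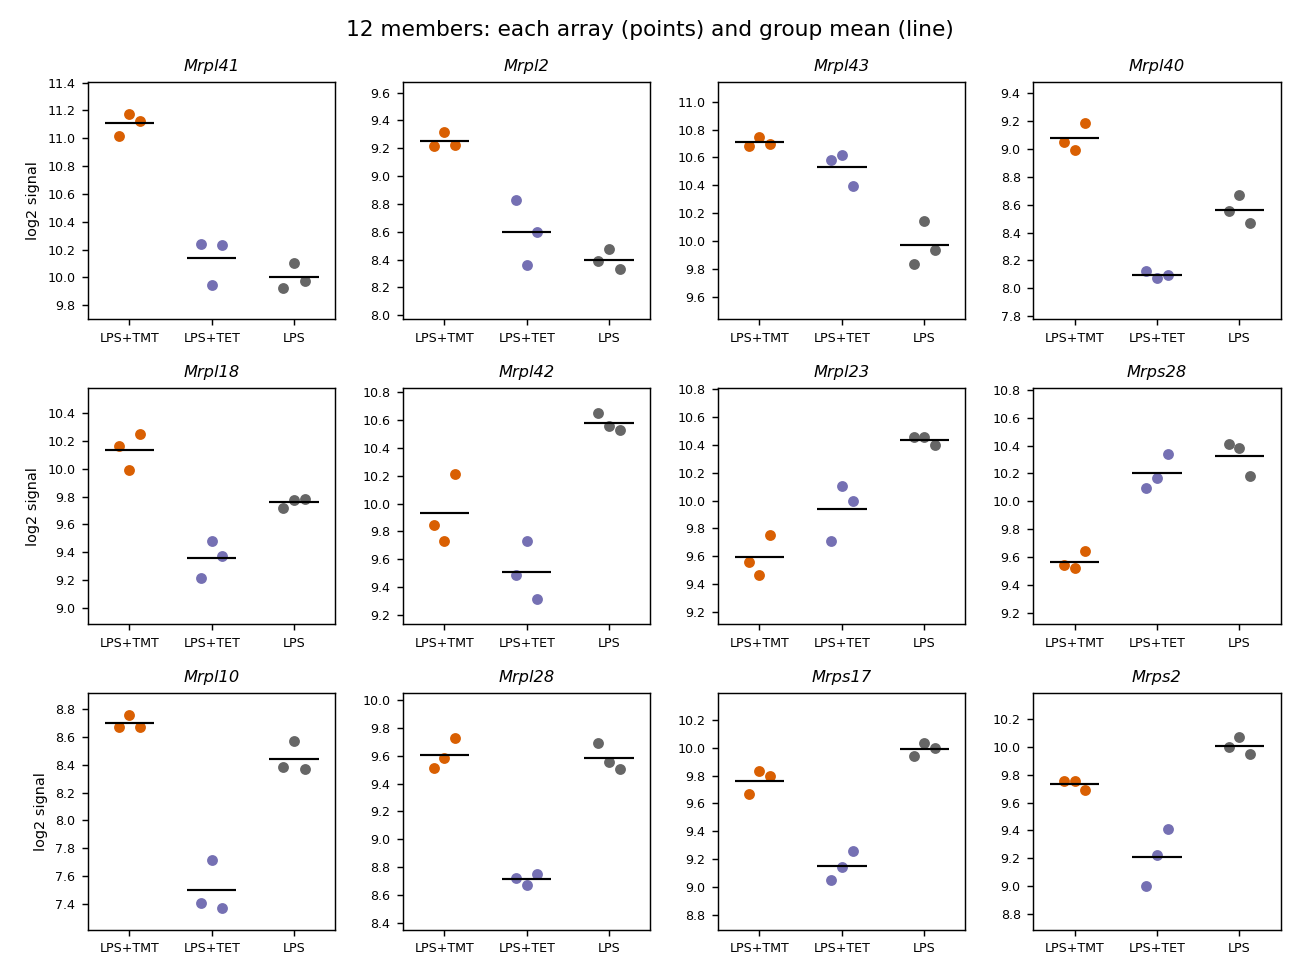
Signals of 12 members on each array in log2 units (vertical axis, spanning a different range in each panel); points are arrays and lines group means, with LPS+TMT left, LPS+TET in the middle and LPS right. Mrpl41 and Mrpl2 are high in LPS+TMT, Mrpl10, Mrpl28, Mrps17 and Mrps2 low in LPS+TET, and Mrpl40 and Mrpl18 lie above saline in LPS+TMT and below it in LPS+TET.

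The second comparison set TET against saline and shares the 3 saline arrays with the first, so that the results of both carry the same deviations of those arrays. Under LPS+TET 29 members fell and 5 rose, 44.7% of the 76, where 50.8% of all genes passed (27.4% higher and 23.4% lower). The median difference, LPS+TET minus LPS, was −0.14, against 0.094 over all genes. Of the 2499 equally bright genes, which match the middle of the members' range only, 46.5% fell and 23.6% rose, with a median of −0.28. Of the 38 members inside that range of brightness, 17 fell and 2 rose (50.0%), with a median of −0.26, close to that of those genes. The members ran from −1.07 to 0.90, and 13 of the 34 differed by 1.5-fold or more.

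The direction of the members as a group depended on how the LPS+TET arrays were scaled. With quantile normalization applied again the median was −0.0336 (8 higher and 23 lower), with cyclic loess, which removes shifts that follow brightness, 0.067 (14 higher and 15 lower), and with each array centred on its median −0.25 (4 higher and 35 lower). The equally bright genes moved alike, to −0.15, −0.021 and −0.39. In the deposited values the median of all genes shifted with brightness. With the genes cut into 10 equal groups by brightness, it lay between 0.13 and 0.24 in each of the 5 dimmest groups and at −0.32, −0.31, −0.24 and −0.11 in the 4 brightest, which held 14, 25, 26 and 10 members. The part of this in the members' shift was not tested. Of the 29 members that fell, 23 still did so after quantile normalization and 15 after cyclic loess, and 5 of the 5 that rose did so under both.

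**Figure D3:**
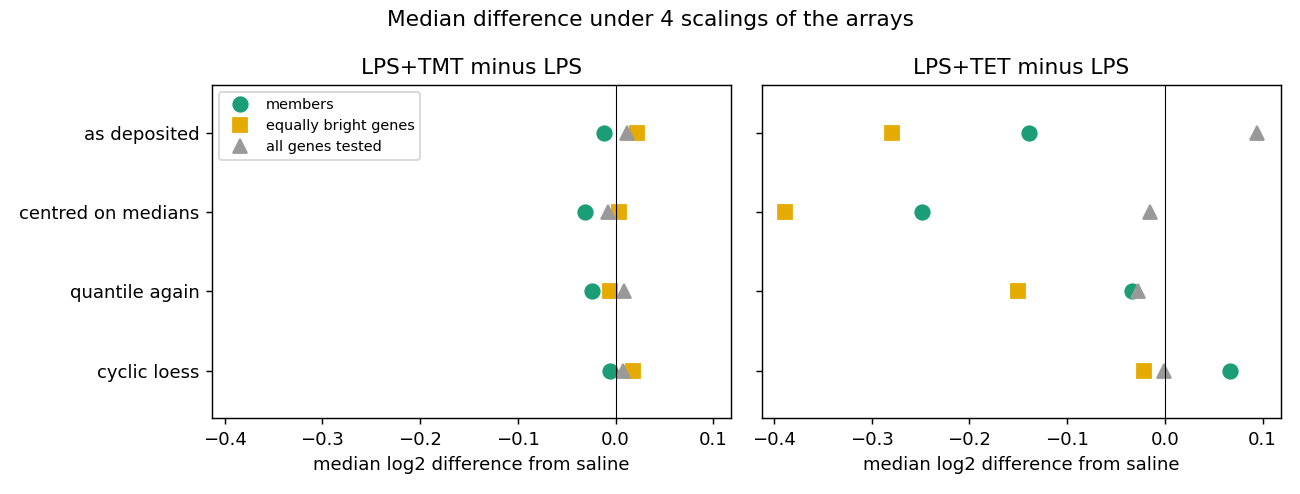
Median log2 difference from saline (horizontal axis) of the 76 members (circles), the equally bright genes (squares) and all genes tested (triangles) under 4 scalings of the arrays, LPS+TMT left and LPS+TET right. In the LPS+TMT panel all medians lie near 0. In the LPS+TET panel the members run from −0.25 with centred arrays to 0.067 with cyclic loess, and lie above the equally bright genes in each scaling. The equally bright genes match only the middle of the members' range. The 38 members inside it, not drawn, had a median of −0.26 in the deposited values, against −0.28.

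By subunit, 15 large subunit genes fell and 3 rose under LPS+TET (median −0.12), and 14 small subunit genes fell and 2 rose (median −0.28). Genes as bright as the large subunit had a median of −0.28 with 69.9% past the threshold, and those as bright as the small subunit −0.31 with 70.3%. By place in the structure, 19 large and 15 small subunit genes passed. Of the 45 members with a bacterial counterpart 19 fell and 4 rose, and of the 30 without 10 fell and 1 rose. These are 51.1% and 36.7% in all, against 50.8% of all genes (27.4% higher and 23.4% lower).

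The largest fall under LPS+TET was that of Mrpl42, which had fallen under LPS+TMT as well. Its signals were 9.49, 9.73 and 9.31 under LPS+TET, against 10.65, 10.56 and 10.53 in saline, a fall of 1.07 ± 0.14 or 2.10-fold (adjusted p = 0.00015). The mean over its 2 probe sets gave −0.46, which passed, and the second alone, at a mean signal of 2.85, gave 0.15. Mrpl10, which anchors the stalk that Mrpl12 forms, had 7.41, 7.72 and 7.37, against 8.38, 8.57 and 8.37. It fell by 0.94 ± 0.11 (adjusted p = 6.8e-05), with array 2 the highest in both groups. Mrpl12 itself fell by 0.54 ± 0.10, a call that was lost after cyclic loess.

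Mrpl28 was among the tightest of the falls. It had 8.72, 8.67 and 8.75 under LPS+TET, against 9.69, 9.55 and 9.51 in saline, and fell by 0.87 ± 0.09, 1.83-fold (adjusted p = 3.0e-05). Under LPS+TMT it had 9.51, 9.59 and 9.72, a difference of 0.02 ± 0.09. Mrpl19, whose bacterial counterpart bridges the subunits, had 8.18, 8.43 and 8.83 under LPS+TET, against 9.39, 9.17 and 9.20, and fell by 0.77 ± 0.15. Mrpl36, the counterpart of one of the smallest bacterial ribosomal proteins, fell by 0.66 ± 0.11. After cyclic loess both still passed, at −0.51 and −0.40.

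In the small subunit the largest falls were those of Mrps17 and Mrps2. Mrps17, whose bacterial counterpart binds the 16S rRNA early in assembly, had 9.05, 9.14 and 9.26 under LPS+TET, against 9.94, 10.04 and 10.00 in saline. It fell by 0.85 ± 0.09 (adjusted p = 3.4e-05). Mrps2 had 8.998, 9.23 and 9.41, against 10.00, 10.07 and 9.95, and fell by 0.80 ± 0.11 (adjusted p = 0.00017). Both sets of arrays were clear of saline. Mrps18b, Mrps10 and Mrps25 fell by 0.72 ± 0.15, 0.65 ± 0.13 and 0.65 ± 0.17; array 2 of Mrps25, at 8.38, lay below the other LPS+TET arrays, at 9.15 and 9.07; without it the gene fell by 0.41, and its call was lost after cyclic loess (adjusted p = 0.107). Mrps2 and Mrps10 still passed there, at −0.53 and −0.39, and Mrps10 with the mean over its 2 probe sets, at −0.35.

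Among the further falls, Mrps34 had 8.07, 8.19 and 8.14 under LPS+TET, against 8.75, 8.71 and 8.78 in saline (−0.61 ± 0.08, adjusted p = 0.00012). Mrps12, the counterpart of a bacterial protein that governs the accuracy of decoding, had 9.50, 9.41 and 9.51, against 10.08, 10.03 and 10.01 (−0.56 ± 0.08, adjusted p = 0.00027). Mrpl14 differed by −0.60 ± 0.14, Mrpl20 by −0.54 ± 0.16, Mrpl34 by −0.54 ± 0.08, Mrps33 by −0.53 ± 0.11 and Mrps16 by −0.53 ± 0.10. Mrps23, Mrps30, Mrps21, Mrpl15 and Mrps14 lay between −0.45 and −0.34, and the smallest fall that passed was that of Mrps26, by 0.27 ± 0.10 (adjusted p = 0.045). The LPS+TET arrays of these genes all lay below saline. After cyclic loess, Mrpl15, Mrpl20, Mrps14, Mrps16, Mrps23, Mrps26 and Mrps30 no longer passed.

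Of the 5 members that rose under LPS+TET, Mrpl1 rose most. Mrpl1, the counterpart of the bacterial protein that helps release spent transfer RNA, had 9.60, 9.75 and 9.66 under LPS+TET, against 8.88, 8.75 and 8.67 in saline, a difference of 0.90 ± 0.09 (adjusted p = 1.8e-05). Its 3 probe sets disagreed: those at mean signals of 6.78 and 6.24 fell, by 0.34 and 1.25, and the mean over the 3 gave −0.23. No direction of Mrpl1 can therefore be given for the gene as a whole.

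Mrpl43 and Mrps18c rose under both compounds. Mrpl43 had 10.58, 10.62 and 10.39 under LPS+TET, 0.56 ± 0.10 above saline (adjusted p = 0.0014). Mrps18c had 11.98, 12.08 and 12.20, against 11.70, 11.66 and 11.64, a rise of 0.41 ± 0.09 (adjusted p = 0.0025). All 3 arrays of both genes lay above saline.

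Mrpl13 and Mrps6 complete the 5. Mrpl13 had 11.84, 11.76 and 11.74 under LPS+TET, against 11.27, 11.45 and 11.34, and rose by 0.42 ± 0.11 (adjusted p = 0.011; 0.702 with the mean over its 4 probe sets). Mrps6 had 11.52, 11.47 and 11.46, against 11.14, 11.14 and 11.15. Its rise of 0.34 ± 0.13 was at the threshold (adjusted p = 0.045) and was lost when any 1 TET or LPS array or TMT array 3 was left out, with adjusted p up to 0.103. It was also lost with the replicate block, with array weights and with centred arrays (adjusted p = 0.0556, 0.0567 and 0.146). The gene's other probe set gave 0.20, which did not pass (adjusted p = 0.172).

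**Figure D4:**
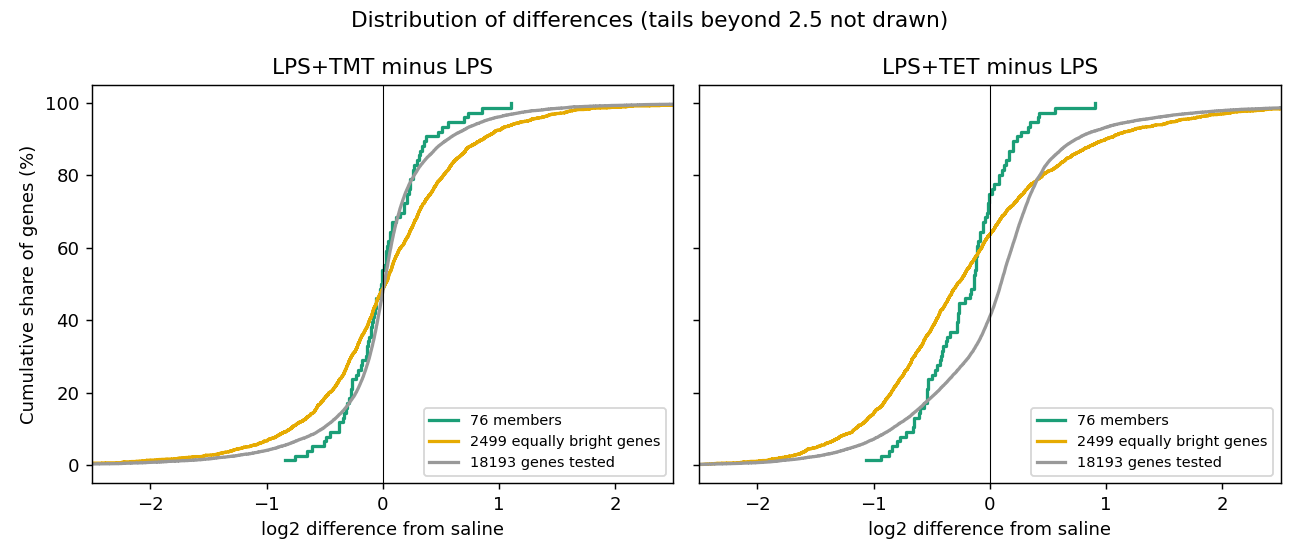
Cumulative share of genes in percent (vertical axis) up to each log2 difference from saline (horizontal axis) for the 76 members, the 2499 equally bright genes and all 18193 genes tested, LPS+TMT left and LPS+TET right. The members' differences span −0.84 to 1.11 under LPS+TMT and −1.07 to 0.90 under LPS+TET, while both other curves run on to the edges of the plot.

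Mrpl40 and Mrpl18 passed in both comparisons in opposite directions. Mrpl40 had 9.05, 8.995 and 9.19 under LPS+TMT and 8.12, 8.07 and 8.09 under LPS+TET, against 8.56, 8.67 and 8.47 in saline. The 3 groups did not overlap: it rose by 0.51 ± 0.09 under LPS+TMT (adjusted p = 0.0016) and fell by 0.47 ± 0.09 under LPS+TET (adjusted p = 0.0017). Its fall under LPS+TET was not called after cyclic loess.

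Mrpl18, a protein of the family that binds 5S rRNA in bacteria, had 10.16, 9.99 and 10.25 under LPS+TMT and 9.22, 9.48 and 9.37 under LPS+TET, against 9.72, 9.78 and 9.78 in saline. Here too the groups were apart, with differences of 0.37 ± 0.10 (adjusted p = 0.019) and −0.40 ± 0.10 (adjusted p = 0.0076). The call against saline under LPS+TMT was lost without TMT array 1 or 3 or any 1 LPS array (adjusted p up to 0.0758), and that under LPS+TET after either quantile normalization or cyclic loess.

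For the other named members the differences from saline stand side by side as follows, with the saline arrays in common. Among those that rose under LPS+TMT, Mrpl2 had 0.85 under LPS+TMT and 0.20 under LPS+TET, Mrpl44 0.70 and −0.11, and Mrpl45 0.56 and 0.27. Mrpl51 had 0.47 and −0.02, and Mrpl52 0.34 and 0.08. None of these genes passed under LPS+TET by the brightest probe set. Dimmer probe sets of Mrpl44, at mean signals of 8.62 and 6.46, fell there by 0.51 and 0.83, while that at 10.76 did not pass. Of the dimmer probe sets of Mrpl52, that at 12.91 rose there by 0.23 and that at 7.48 fell by 1.48. The remaining probe set of Mrpl52 did not pass. Among those that fell under LPS+TMT, Mrpl23 had −0.84 and −0.50, Mrpl4 −0.51 and −0.37 and Mrpl37 −0.34 and −0.43, which all passed under LPS+TET, though not after cyclic loess. Mrps28 had −0.76 and −0.12, Mrpl3 −0.49 and −0.13 and Mrps15 −0.37 and −0.01, none of which passed under LPS+TET by the brightest probe set. The dimmer probe sets of Mrpl3, at mean signals of 9.07, 6.36 and 6.19, fell there by 0.33, 1.10 and 1.04. Of the large falls under LPS+TET, Mrpl10 had 0.26 under LPS+TMT, Mrps17 −0.23, Mrps2 −0.27, Mrpl36 −0.18, Mrps10 −0.28 and Mrps25 −0.14. None of these passed under LPS+TMT by its brightest probe set, while a dimmer one of Mrps2 fell by 0.46 and a dimmer one of Mrps25 rose by 0.51. Passing in one comparison alone does not show a difference between the compounds.

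The compounds were therefore compared directly, at doses that differ (TET Br at 10 µM and TMT OH at 1.25 µM), so that compound and dose cannot be told apart. In LPS+TET minus LPS+TMT 32 members were lower and 7 higher, 51.3%, against 51.8% of all genes (28.1% higher and 23.7% lower). The median was −0.19, against −0.24 in the equally bright genes, of which 45.1% were lower and 25.2% higher. The 38 members inside that range of brightness had a median of −0.22. After quantile normalization the counts were 21 lower and 13 higher, and after cyclic loess 16 lower and 18 higher, with a median of 0.047. In the large subunit 18 were lower and 4 higher, and in the small subunit 14 and 3. No member of the 30 without a bacterial counterpart was higher, and 15 were lower; of the 45 with one, 17 were lower and 7 higher.

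Members lower under LPS+TET than under LPS+TMT were led by Mrpl10, which had 7.41, 7.72 and 7.37, against 8.67, 8.75 and 8.67, a difference of −1.20 ± 0.11 or 2.29-fold (adjusted p = 1.1e-05). Mrpl40 differed by −0.98 ± 0.09, Mrpl41 by −0.97 ± 0.11, Mrpl28 by −0.89 ± 0.09, Mrpl44 by −0.81 ± 0.16 and Mrpl18 by −0.78 ± 0.10. The 3 LPS+TET arrays lay below the 3 LPS+TMT arrays in each, and these 6 calls were kept in every alternative tried. The 3 probe sets of Mrpl41 disagreed here: its second gave −0.96 and its dimmest, which passed, 0.72, and the mean over the 3 was −0.40. After cyclic loess Mrpl18 differed by −0.51. Mrps28 was higher under LPS+TET, at 10.10, 10.17 and 10.34, against 9.54, 9.52 and 9.64, by 0.63 ± 0.10 (adjusted p = 0.00047).

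Mrps6 was higher by 0.72 ± 0.13, Mrps15 by 0.36 ± 0.09 and Mrpl16, whose bacterial counterpart helps position transfer RNA, by 0.38 ± 0.10. Mrpl3 was higher by 0.36 ± 0.08 and Mrpl1 by 0.85 ± 0.09, but with the mean over their probe sets these were −0.14 and −0.37. In none of the 3 comparisons did 27 members pass by their brightest probe set, 18 of the large and 9 of the small subunit. Among them were the bright Mrpl39, with differences from saline of −0.08 ± 0.13 under LPS+TMT and 0.08 ± 0.13 under LPS+TET, and the dim Mrpl38, with −0.12 ± 0.11 and −0.17 ± 0.11. Mrps36, now counted by structural work as a subunit of a mitochondrial dehydrogenase rather than of the ribosome, was another. Some of the 27 had a dimmer probe set that passed, and others had none. That of Mrpl50 at a mean signal of 7.82 fell by 1.13 under LPS+TET, and that of Mrpl17 at 5.29 rose by 1.62 there. That of Mrpl49 at 7.83 rose by 0.63 under LPS+TMT and fell by 0.31 under LPS+TET. The 27 can therefore not all be called unchanged.

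Probe sets of the same gene gave a partial check, in a separate limma fit adjusted over all 34945 probe sets that name 1 gene. In that fit Mrpl19 under LPS+TMT (adjusted p = 0.0525) did not pass by its brightest probe set, unlike in the main test. Nor did Mrps6 and Mrps26 under LPS+TET (adjusted p = 0.0516 and 0.0539). Of the 42 members with several probe sets, 7 passed there under LPS+TMT by their brightest one. In 5 of these another probe set passed in the same direction and in 0 in the opposite one. Under LPS+TET the numbers were 13, 8 and 2, and in LPS+TET minus LPS+TMT 21, 13 and 5. The other 34 members rest on 1 probe set each, and 9 of the 76 on probe sets that may bind related transcripts, including Mrpl19, Mrpl37 and Mrps6.

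Some head-to-head neighbours passed the test together with the member. Mrpl43 shares its promoter region, shown above, with Twnk, which encodes the helicase that unwinds mitochondrial DNA. Twnk rose by 1.04 ± 0.09 under LPS+TMT (adjusted p = 1.4e-05) and by 1.53 ± 0.09 under LPS+TET (adjusted p = 5.5e-07), beside 0.74 and 0.56 for Mrpl43. Of 23 members with such a neighbour, 6 passed under LPS+TMT, and 2 of these had a neighbour that passed in the same direction (Twnk, and the DNA helicase gene Helq beside Mrps18c) and 2 one in the opposite direction (the chaperonin gene Tcp1 beside Mrpl18 and the kinesin light chain gene Klc4 beside Mrpl2). Under LPS+TET 8 passed, 3 with a neighbour in the same direction (Twnk, the histone chaperone gene Hira beside Mrpl40 and Tmem63b beside Mrpl14) and 0 with one in the opposite direction. Of the 23 neighbours themselves, 7 and 12 passed, near the shares of all genes (27.8% and 50.8%), so the joint calls are given as values of these pairs only. Mrpl46 and Mrps11 are each other's neighbour, so that pair was counted from both sides. Neither gene passed in either comparison with saline.

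Mitoribosomal proteins with other symbols gave 4 further measured genes. Under LPS+TMT 1 of the 4 fell and 0 rose (median −0.07), and under LPS+TET 4 fell (median −0.46), where 46.5% of the genes as bright as the members fell. Ptcd3, a small subunit protein of the family that binds RNA, fell by 0.40 ± 0.11 under LPS+TMT and by 0.98 ± 0.11 under LPS+TET. Chchd1 and Dap3 of the small subunit and Gadd45gip1 of the large subunit differed from saline by 0.02, 0.14 and −0.16 under LPS+TMT and fell by 0.57 ± 0.10, 0.35 ± 0.09 and 0.30 ± 0.10 under LPS+TET. Of the proteins that mitochondria themselves encode, 1 of 13 was measured: ND5, a complex I subunit and so a product of these ribosomes, at 13.37 and 13.43 under LPS+TMT and LPS+TET and 13.53 in saline, which passed in neither comparison.

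Of 13 measured mitochondrial translation factors, 1 rose and 2 fell under LPS+TMT, and 2 rose and 5 fell under LPS+TET, or 23.1% and 53.8%, near the 27.8% and 50.8% of all genes. Lrpprc, which stabilises mitochondrial mRNAs, fell by 1.12 ± 0.12 under LPS+TMT and by 0.79 ± 0.12 under LPS+TET. Guf1, a ribosome-binding GTPase, fell by 0.72 ± 0.20 and 1.42 ± 0.20. Mtfmt, which puts the formyl group on the initiator transfer RNA, fell by 1.26 ± 0.12 under LPS+TET, and Mrrf, which recycles ribosomes after termination, rose by 0.80 ± 0.11 there.

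Of 25 assembly and ribosomal RNA factors, 6 rose and 2 fell under LPS+TMT (median 0.07), and 4 rose and 10 fell under LPS+TET (median −0.34). These are 32.0% and 56.0% of the list, against 27.8% and 50.8% of all genes. Mrm1, which methylates the large ribosomal RNA, rose by 1.47 ± 0.15 under LPS+TMT, and Trub2, a pseudouridine synthase, by 1.30 ± 0.14; under LPS+TET they differed from saline by −0.06 and 0.14. Malsu1, which binds the large subunit at Mrpl14 and keeps the subunits apart, rose by 1.18 ± 0.11 under LPS+TET, and Mtg1, an assembly GTPase, fell by 0.39 ± 0.12 under LPS+TMT and 1.01 ± 0.12 under LPS+TET.

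Of 13 genes of mitochondrial transcription and RNA processing, 1 rose and 2 fell under LPS+TMT, and 5 rose and 4 fell under LPS+TET, or 23.1% and 69.2% in all. Besides Twnk, Trmt10c, a subunit of the RNase that cuts mitochondrial transfer RNAs out of their precursors, rose by 2.07 ± 0.12 under LPS+TET (adjusted p = 4.4e-07). Tefm, the elongation factor of the mitochondrial RNA polymerase, fell by 0.47 ± 0.08 under LPS+TMT and by 0.84 ± 0.08 under LPS+TET. Pnpt1, a mitochondrial RNA-degrading enzyme, fell by 0.65 ± 0.08 under LPS+TMT and rose by 0.24 ± 0.08 under LPS+TET.

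Of 11 regulators of nuclear genes for mitochondrial proteins, 6 fell and 1 rose under LPS+TMT (median −0.62), and 6 fell and 1 rose under LPS+TET (median −0.40). The 54.5% that fell compare with 13.4% of all genes under LPS+TMT and 23.4% under LPS+TET, and with 23.9% and 46.5% of the genes as bright as the members. Those genes match the members and not the regulators, whose saline means ran from 4.61 to 11.70. Ppargc1b and Pprc1, coactivators of the PGC-1 family, fell under both compounds. The differences were −2.41 ± 0.19 for Ppargc1b and −0.62 ± 0.13 for Pprc1 under LPS+TMT, and −1.15 ± 0.19 and −1.88 ± 0.13 under LPS+TET. Nrf1 fell by 0.73 ± 0.14 and 1.18 ± 0.14, and Gabpb1, a subunit of GABP, by 0.67 ± 0.13 and 0.65 ± 0.13. Gabpa, its DNA-binding subunit, fell by 0.75 ± 0.13 under LPS+TMT, with a difference of −0.14 ± 0.13 under LPS+TET.

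Myc fell by 1.38 ± 0.18 under LPS+TMT and rose by 0.95 ± 0.18 under LPS+TET, and Esrra, a nuclear receptor that works with PGC-1 coactivators, rose by 0.78 ± 0.14 and fell by 0.40 ± 0.14. Sp1, a general activator of GC-rich promoters, fell by 0.80 ± 0.12 under LPS+TET and differed by −0.19 ± 0.12 under LPS+TMT. Yy1, Gabpb2 and Ppargc1a passed in neither comparison. Whether the regulators and the members are linked was not tested.

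Some markers of other cell types differed between the groups. Of 6 neutrophil and granule genes 3 fell under each compound; their summed linear signal was 2399 to 3402 under LPS+TMT, 1900 to 2101 under LPS+TET and 3355 to 3968 in saline. Of 3 B cell markers 3 rose under LPS+TET, and of 4 stromal ones 1 rose under LPS+TMT and 3 under LPS+TET, where 27.4% of all genes rose. The B cell markers had mean signals of 4.18 to 6.23, in the dim range where the median of all genes was itself above saline under LPS+TET (0.20 to 0.24). The summed B cell signal was 111 to 116, 152 to 173 and 111 to 122 in LPS+TMT, LPS+TET and LPS, and the stromal one 374 to 515, 499 to 711 and 362 to 427. Of 5 dendritic cell markers 1 rose under LPS+TMT and 2 under LPS+TET, and of 3 T cell markers 1 fell under LPS+TMT and 2 rose under LPS+TET. Of 3 erythroid and 3 megakaryocyte markers 1 each rose under LPS+TET, and the 2 NK cell and 4 mast cell and basophil markers passed in neither comparison. The dendritic cell, T cell and erythroid markers, at mean signals of 3.61 to 6.70, were also in the dim range. There the median of all genes was 0.13 to 0.24 above saline under LPS+TET. Among the 9 macrophage markers 2 rose and 2 fell under LPS+TMT, and 1 rose and 4 fell under LPS+TET, with summed signals of 80481 to 93845, 71957 to 79923 and 87516 to 89997. No marker is listed at 0 on this scale. The part of these cells in the members' differences was not tested.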

How the data were processed

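Per the labels' protocols, amplified RNA of 9 macrophage cultures (3 per group) was measured on Affymetrix whole-genome mouse arrays. Per the submitters' processing notes, RMA and affy were used, with versions not given in the sources used here; RMA corrects background, normalizes between arrays and summarises probes on a log2 scale. The deposited values are log2 signals, the base being taken from the values, and it is not stated whether all 9 arrays were normalized together. They were used without further normalization.

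Of 45037 probe sets, 34945 named 1 gene in the platform annotation, 932 several and 9160 none; only the first kind was used, and for each of 18193 genes the probe set with the highest mean over the 9 arrays. The 9 arrays were fitted together, 1 mean for each group, with limma 3.58.1 in R 4.3.3 (6 residual degrees of freedom, prior degrees of freedom 3.99, no trend). Adjustment of the two-sided p-values (Benjamini-Hochberg) ran over 18193 genes per comparison, with 0.05 as the threshold. Every adjusted p is from this test, except those given for an alternative and those of the check between probe sets. Calls in that check, also of single probe sets other than the brightest, were adjusted over the 34945 probe sets that named 1 gene. Rose and fell are used of genes or probe sets past the threshold. SE is the moderated standard error, intervals are 95% intervals, and ± after a fall or rise is the SE. The groups share 1 estimate of the spread. P-values measure the spread between these arrays, whose number sets the precision.

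Named members were those past the threshold with the largest differences and the treated arrays outside the saline range (up to 10 a direction against saline, 6 in LPS+TET minus LPS+TMT), those called in opposite directions, the 4 brightest and the 2 dimmest, and in each pathway list up to 4 genes with the smallest adjusted p (all, for regulators and for mitoribosomal proteins with other symbols); a few others named to spell out a count or a disagreement were chosen after their values were seen. Members and lists were chosen with earlier results of these data known. Lists are described by counts and medians, without a test of the list. Alternatives were leaving out each array, a replicate block, other scalings, bright genes only, the mean over probe sets, no probe sets marked as binding related transcripts, array weights, trended robust moderation, the 6 arrays of a comparison alone, a 1.5-fold minimum and subunits by structure. The 1.5-fold minimum and the subunits by structure were applied to counts of members only. The fit was tested on simulated data.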

Additional observations from a re-analysis of the deposited data

Results flagged for a closer look

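Mrpl18 and Mrpl40 were picked out because they passed against the same saline arrays in opposite directions and the test of the difference itself passed as well. In both, the 3 LPS+TMT arrays lay above and the 3 LPS+TET arrays below saline. LPS+TET minus LPS+TMT was −0.78 ± 0.10 on the log2 scale for Mrpl18 (SE; limma adjusted p = 0.00012) and −0.98 ± 0.09 for Mrpl40 (adjusted p = 1.0e-05). Both differences passed in every alternative tried, between −0.87 and −0.51 for Mrpl18 and between −1.07 and −0.72 for Mrpl40. Not all calls against saline did. That of Mrpl18 under LPS+TMT was lost without TMT array 1 or 3 or any 1 LPS array. Its call under LPS+TET was lost after quantile normalization or cyclic loess, and that of Mrpl40 under LPS+TET after cyclic loess. The doses of the compounds differ, so compound and dose cannot be told apart.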

How the results depend on the processing

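Of the 47 results for named members, 31 kept their direction and side of the threshold in every alternative fit. The 1.5-fold minimum was not applied to them. Of the 892 values in all, 834 kept both, 55 lost the call and 3 reversed. The reversals came with the mean over probe sets: Mrpl1 gave −0.23 in LPS+TET minus LPS and −0.37 in LPS+TET minus LPS+TMT, and Mrpl3 −0.14 in LPS+TET minus LPS+TMT. Leaving out 1 array gave 13 to 25 members past the threshold in LPS+TMT minus LPS (main 20), 29 to 36 in LPS+TET minus LPS (34) and 31 to 39 in LPS+TET minus LPS+TMT (39), with medians of −0.035 to 0.0077, −0.20 to −0.14 and −0.23 to −0.17. The count under LPS+TMT was 44 with array weights, 31 with the 6 arrays alone and 8 with a 1.5-fold minimum, and its median −0.056 over the 73 members left without probe sets that may bind related transcripts. With a 1.5-fold minimum the counts under LPS+TET and between the compounds were 13 and 15. The median under LPS+TET was −0.0336 after quantile normalization, 0.067 after cyclic loess, −0.25 with centred arrays and −0.28 with the mean over probe sets; between the compounds it was −0.0736, 0.047 and −0.28 under the first 3. The causes were not tested. With the replicate number as a block 17, 32 and 36 members passed. Same-numbered arrays correlated between −0.148 and 0.308 in their deviations from the group means, and 4 of 9 arrays correlated best with their own number. With so few arrays, whether those of the same number have more than the number in common cannot be told from these values.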

Other observations

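Probe sets that name a mitochondrial ribosomal protein together with another gene were left out of the tests, and 3 of them measure genes with distinct values. The brighter probe set of Mrpl30 and Gm6238 averaged 11.79 ± 0.09 under LPS+TMT, 12.31 ± 0.12 under LPS+TET and 11.70 ± 0.02 in saline (SD, n = 3 each). That of Mrps34 and Nme3 averaged 6.46 ± 0.25, 6.50 ± 0.30 and 8.05 ± 0.13 in the same order, whereas the probe set of Mrps34 alone fell by 0.61 under LPS+TET and differed by 0.06 under LPS+TMT. That of Mrpl53 and Ccdc142 averaged 9.47 ± 0.03, 8.83 ± 0.14 and 9.16 ± 0.0045. Which of the paired genes gave these signals cannot be told apart.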
